A study of Homo sapiens with 19 samples.

Results

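The genes described here are 34 members of the antioxidant defence of the cell, namely the transcription factor NRF2 with its 2 nearest regulators, a set of genes known as NRF2 targets, and the main enzymes that remove superoxide, hydrogen peroxide and lipid peroxides. They were chosen by name from the 31033 gene names on the array. RNA was taken from THP-1, a human acute monocytic leukemia cell line that phorbol myristate acetate (PMA) turns into macrophage-like cells. Cells were differentiated with 30 nM PMA, rested in fresh medium, and then kept without further addition (UT) or with 0.1 mM vitamin C (vit C) until harvest at 8, 24, 48 or 96 h. All groups had therefore received PMA, and all came from 1 cell line. The 19 arrays were 10 of UT cells and 9 of vit C cells, with 3 arrays of UT at 24 h, UT at 96 h and vit C at 8 h, and 2 arrays of each of the other 5 groups. Replicates were separate flasks by the study's methods, and samples of low RNA integrity had been left out before hybridization, which left the groups of 2. The question put to these genes was which of them differed between vit C and UT cells at a given time, and which changed with time in each kind of cell.

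NRF2, encoded by NFE2L2, is held in the cytoplasm and marked for degradation by KEAP1. When KEAP1 is modified by oxidants or electrophiles, NRF2 enters the nucleus, pairs with small MAF proteins and binds the antioxidant response element, while BACH1 occupies the same element as a repressor. The targets supply glutathione, reduced thioredoxin and NADPH, and break down quinones and heme. Ascorbate is itself a reductant that works beside these enzymes, and glutathione and thioredoxin reductase take part in its recycling.

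The values are normalized log2 signals, that is, the log2 of the processed spot signal minus the 75th percentile of the same array, with the brightest probe taken for each gene. A value of 0 is the level of that percentile, and 1 unit is a doubling. Levels of different genes come from different probes and were not set against each other. A gene is termed called when its signal differed at least 1 log2 unit in either direction and its adjusted p was at most 0.05 in a 2-sided limma test with Benjamini-Hochberg adjustment over all 31033 names. Precision is limited by how few arrays there were, and in RNA from a whole culture fewer cells of a kind and less RNA per cell cannot be told apart. The 75th percentile signal ranged from 290.2 to 903.5 over the arrays, 57.5% to 72.8% of probes were well above background, and no spot was saturated. The macrophage markers CD14, CD68 and CSF1R were well above background on all 19 arrays, while CDH1 of epithelium, CD3D of T cells and the collagen gene COL1A2 of fibroblasts were above it on 0 arrays. The third UT array at 96 h stood apart, with a mean correlation of 0.9674 to the other 2 of its group, and many of the results that rest on it are given without it as well. Slide 1 held the UT arrays of 8, 24 and 48 h and the first UT array of 96 h, and slide 2 the vit C arrays of 8 and 24 h, the first vit C array of 48 h and the remaining UT arrays of 96 h. The second vit C array of 48 h was on slide 3, and both of 96 h were on slide 4, which was scanned on day 2. At no time were UT and vit C arrays on the same slide, so slide and vit C cannot be told apart at 96 h, and at the other times only a fit that takes slide differences from the other groups can separate them. Within vit C cells, all 8 h arrays were on slide 2 and both 96 h arrays on slide 4, so that time, slide and scan day cannot be told apart in that comparison.

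Of the 34 members, 31 were well above background on all 19 arrays. AKR1B10, an aldo-keto reductase, was above it on 0 arrays and has no usable level here. The secreted glutathione peroxidase GPX3 was above background on 9 arrays and AKR1C1 on 18. More than 1 probe was present for 16 of the genes.

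The probes behind the results that matter most are shown first, since the identity of the measured transcript depends on them. The brightest AKR1C1 probe and the AKR1C3 probe, as given in the array files, shared an unbroken run of 21 bases, set in capitals, and 37 of the 41 bases that overlapped in register were identical. PRDX2 was measured by 2 probes at different places of its transcript.
AKR1C1, brightest probe: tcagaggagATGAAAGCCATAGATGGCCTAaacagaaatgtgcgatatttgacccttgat
AKR1C3 probe: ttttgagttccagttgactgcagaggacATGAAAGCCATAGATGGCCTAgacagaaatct
PRDX2, brightest probe: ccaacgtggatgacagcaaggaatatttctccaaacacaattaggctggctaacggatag
PRDX2, other probe: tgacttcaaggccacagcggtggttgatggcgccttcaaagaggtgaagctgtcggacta

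Promoter windows of RefSeq genes (GRCh38.p14, 250 bases before to 50 bases after a transcript start) were searched on both strands for the core of the antioxidant response element, TGACNNNGC. Windows were at hand for 25 of the 34 members, 38 windows in all, and the core was found in 7 of them (18.4%), which belong to 6 genes, against 4687 of all 35116 windows (13.3%). The 6 genes were TXNRD1, GCLM, KEAP1, ME1, EPHX1 and PGD. Sites are shown for TXNRD1, EPHX1 and PGD, whose signals changed with time, and for GCLM and KEAP1, which held an identical core, TGACTAAGC, on the other strand. The 9 bases of the core are in capitals, read 5′ to 3′ on the strand of the gene, so that a core on the other strand reads GCNNNGTCA. A match describes these letters only, and a window without one says nothing of NRF2 at that gene.
TXNRD1, first window, + strand, chr12:104215670-104215698: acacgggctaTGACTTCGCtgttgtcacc
TXNRD1, first window, + strand, chr12:104215761-104215789: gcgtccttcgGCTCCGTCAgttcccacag
TXNRD1, second window, + strand, chr12:104286920-104286948: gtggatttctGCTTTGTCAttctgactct
EPHX1, + strand, chr1:225825266-225825294: tgagattggcTGACTTGGCaggactgtgc
PGD, + strand, chr1:10398853-10398881: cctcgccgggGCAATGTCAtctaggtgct
GCLM, - strand, chr1:93909446-93909474: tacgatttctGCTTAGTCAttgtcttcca
KEAP1, - strand, chr19:10502784-10502812: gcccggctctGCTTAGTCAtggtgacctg

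In the comparison of vit C with UT cells at the same time, 1 of the 34 members was called, and only at 96 h. This was PRDX2, a cytosolic peroxiredoxin that reduces hydrogen peroxide with electrons from thioredoxin, and it was lower with vit C. No member was called at 8 h, where 0.412% of all gene names were, at 24 h (1.21% of all) or at 48 h (2.8% of all), and 1 member of 34 (2.94%) was called at 96 h against 7.03% of all. At an unadjusted p of at most 0.05, limma gave 1, 2, 9 and 8 of the 34 members at 8, 24, 48 and 96 h, beside 12.5%, 16.2%, 15.8% and 25.3% of all gene names. The median log2 fold change of the members was -0.07, -0.11, -0.14 and -0.19 at these times, beside -0.05, -0.13, -0.02 and -0.15 over all gene names. The share of all gene names called at 96 h was 2.7% after quantile normalization and 2.41% after normexp correction, with the same 1 member called. With slide as a fixed block, 4 names were called higher and 2 lower at 8 h, 10 and 8 at 24 h, and 54 and 68 at 48 h. Without the block the names called were 128, 375 and 870. In that fit the member median was 0.06, 0.05 and 0.04 at 8, 24 and 48 h, so its sign depended on how slide was treated, and at 96 h that fit could not be made. The difference between slides 1 and 2 comes there from the UT arrays of 96 h alone. These include the third, which stood apart with a member median of 2.62 against 3.48 and 3.40, and the fit was not run without it.

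**Figure D1:**
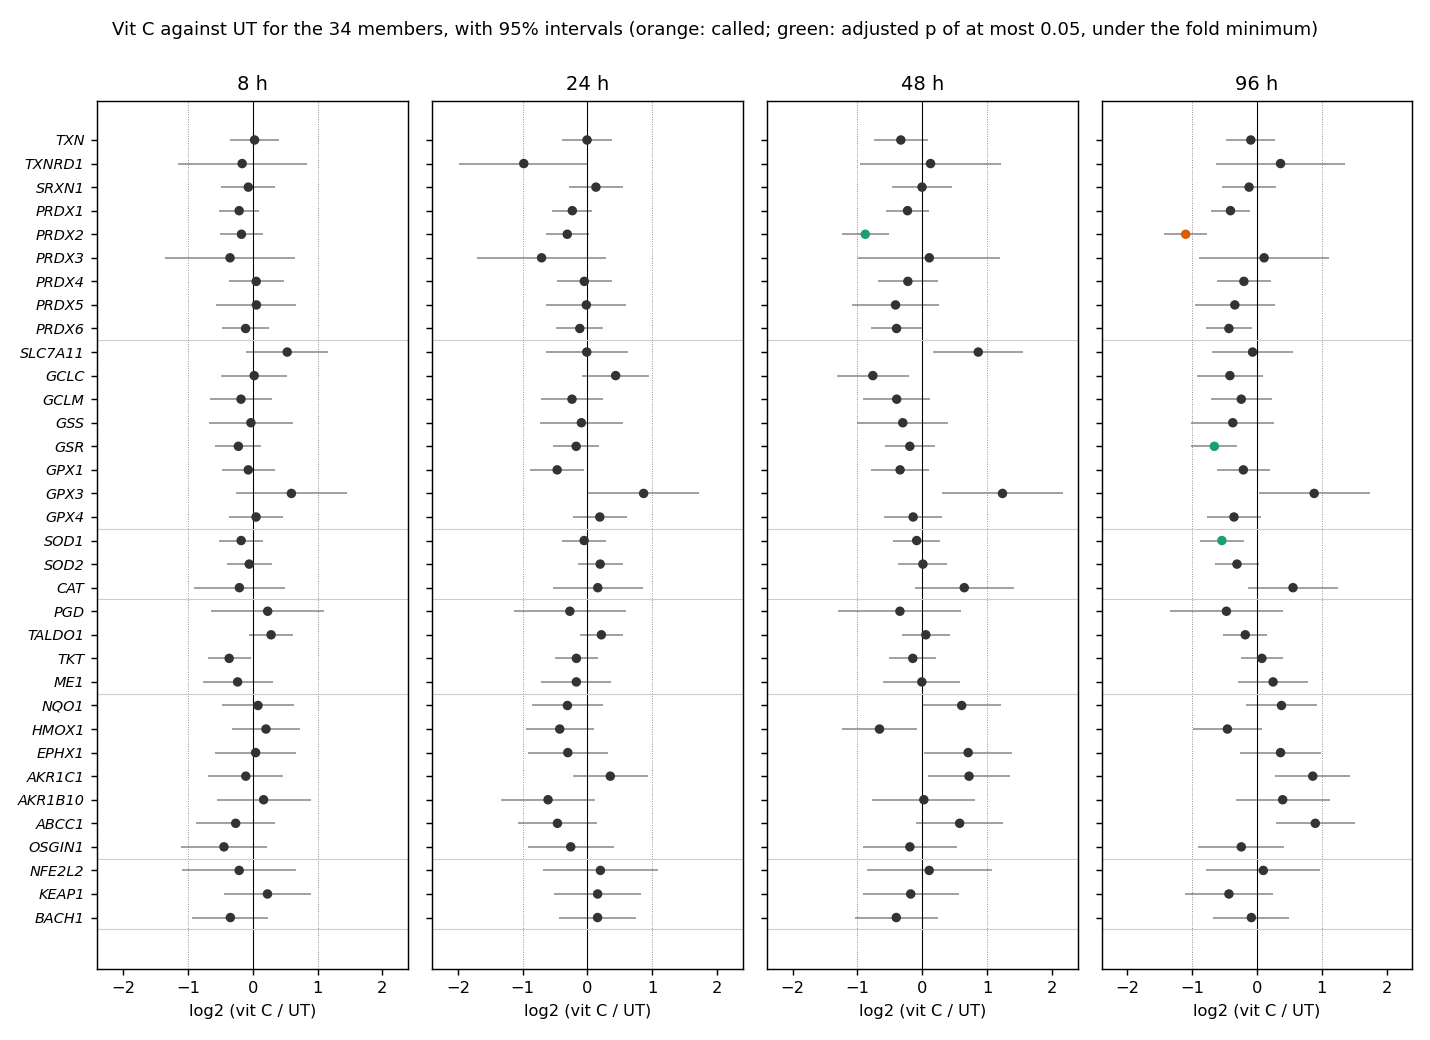
Log2 fold change of vit C over UT (x axis) for each of the 34 members (y axis, ordered by role) at 8, 24, 48 and 96 h, with the 95% confidence interval of the limma fit as a bar. PRDX2 at 96 h is the 1 called point (-1.10), PRDX2 at 48 h, GSR at 96 h and SOD1 at 96 h had an adjusted p of at most 0.05 below the fold minimum, and dotted lines mark a log2 fold change of 1 in each direction.

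PRDX2 was the member that set vit C and UT cells apart most clearly. In UT cells its level was 2.51 and 2.59 at 8 h, then 2.20, 2.47 and 2.46 at 24 h, 2.81 and 2.95 at 48 h, and 3.33, 3.42 and 3.17 at 96 h. In vit C cells it was 2.32, 2.36 and 2.45 at 8 h, 2.00 and 2.12 at 24 h, 2.05 and 1.95 at 48 h, and 2.24 and 2.17 at 96 h. The arrays of the 2 kinds did not overlap at any of the 4 times, and the gap was widest at 96 h. At a single time such groups were common, at 39.1%, 30.2%, 50.8% and 36.9% of all gene names at 8, 24, 48 and 96 h. Against 8 h, the UT level at 96 h was higher by 0.75 (adjusted p = 0.00292) and the vit C level differed by -0.17 (adjusted p = 0.425). The other PRDX2 probe gave 0.62 in UT and 0.27 in vit C cells, so that the direction in vit C cells is not settled. The log2 fold change with vit C was -0.17 at 8 h (SE 0.15, adjusted p = 0.707), -0.31 at 24 h (SE 0.15, adjusted p = 0.328), -0.88 at 48 h (SE 0.17, adjusted p = 0.0124) and -1.10 at 96 h (SE 0.15, adjusted p = 0.00101, 2.14-fold lower) by limma. The other PRDX2 probe gave -0.33, -0.85, -0.94 and -0.67 at the same times, the same direction at each. Averaged over the 4 times the difference was -0.62 (SE 0.08, adjusted p = 0.000228). Whether the effect itself differed between times was not established by the limma F test over the 4 effects (adjusted p = 0.0883), although without the third UT array of 96 h PRDX2 and NQO1 passed it. Without that array the difference at 96 h was -1.17 (adjusted p = 0.000526). The call at 96 h was lost when the mean of both probes was used (log2 fold change -0.89, adjusted p = 0.00723) and with the methods' t-test (adjusted p = 0.228). At 48 h, a fit with slide as a block left -0.79 with an adjusted p of 0.458, and leaving out 1 of the 4 arrays gave adjusted p-values of 0.0484 to 0.107.

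The other 8 genes of the thioredoxin and peroxiredoxin group were not called with vit C at any time. TXN and TXNRD1 are thioredoxin and its cytosolic reductase, SRXN1 restores overoxidized peroxiredoxins, and PRDX1, PRDX3, PRDX4, PRDX5 and PRDX6 are further peroxiredoxins of the cytosol, mitochondria, endoplasmic reticulum and peroxisomes. In the group of 9, 8 values were below 0 at 24 h and 7 at both 48 and 96 h, with medians of -0.12, -0.23 and -0.20, beside the medians over all genes given above. TXNRD1 had the largest difference of any member at 24 h, -0.98 (95% interval -1.98 to 0.01, adjusted p = 0.315). Its levels there were -0.99, -0.86 and -1.59 in UT cells and -2.62 and -1.64 in vit C cells, which did not overlap. PRDX3, the mitochondrial peroxiredoxin, came next in the group at 24 h with -0.71 (adjusted p = 0.447), but its other probe, detected on 12 arrays, gave 0.90 and the mean of both 0.10, so that its direction is not settled. PRDX1 was lower by 0.27 on the log2 scale when averaged over the 4 times (SE 0.07, adjusted p = 0.0271).

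Genes of glutathione synthesis and use were not called with vit C either. SLC7A11 is the cystine carrier that feeds glutathione synthesis, GCLC and GCLM are the subunits of its rate-limiting enzyme, and GSS completes the molecule. SLC7A11 was at 0.57 and 0.68 in UT and 1.15, 1.15 and 1.17 in vit C cells at 8 h, and at 0.19 and 0.04 in UT and 1.07 and 0.89 in vit C cells at 48 h. The vit C arrays were the higher ones at both times, without overlap, by 0.53 (adjusted p = 0.499) and 0.86 (95% interval 0.17 to 1.56, adjusted p = 0.185), while at 24 h (0.13, 0.31 and -0.01 in UT, 0.39 and -0.12 in vit C) and at 96 h (-0.05, 0.10 and 0.58 in UT, -0.46 and 0.75 in vit C) the arrays overlapped. Groups that do not overlap were common, at 39.1% of all gene names at 8 h and 50.8% at 48 h. The other 2 SLC7A11 probes gave -0.25 and 1.00 at 8 h, opposite directions, and 0.97 and 1.71 at 48 h. With the mean of its 3 probes SLC7A11 passed the call at 48 h, at 1.18 (adjusted p = 0.0461). GCLC went the other way at 48 h, from 3.95 and 4.07 in UT to 3.28 and 3.21 in vit C cells, a difference of -0.76 (95% interval -1.32 to -0.20, adjusted p = 0.142).

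GSR, glutathione reductase, and SOD1, the cytosolic copper and zinc superoxide dismutase, were lower with vit C at 96 h by less than the fold minimum. GSR was 2.08, 1.89 and 1.79 in UT and 1.33 and 1.19 in vit C cells, a difference of -0.66 (SE 0.17, adjusted p = 0.0329). SOD1 was 7.20, 7.09 and 7.14 in UT and 6.72 and 6.48 in vit C cells, a difference of -0.54 (adjusted p = 0.0470). Neither pair of groups overlapped. With the fold minimum dropped, 3 of 34 members (8.82%) passed at 96 h, these 2 and PRDX2, against 9.63% of all gene names, and at 48 h 1 of 34 (2.94%), PRDX2, against 3.47% of all. The difference of SOD1 was -0.31 (adjusted p = 0.296) after quantile normalization, and leaving out 1 array gave adjusted p-values of 0.0117 to 0.266 for GSR and 0.0277 to 0.328 for SOD1, the highest without the second vit C array. GPX1 and GPX4, which reduce hydrogen peroxide and lipid hydroperoxides, differed from UT by -0.47 to 0.19 at the 4 times without passing the test, the lowest being GPX1 at 24 h (adjusted p = 0.255). GSS had a value of -0.37 at 96 h (adjusted p = 0.497) and of -0.78 (adjusted p = 0.0135) without the third UT array.

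GPX3 was higher with vit C on average but lay at the edge of detection. Of the UT arrays, none of 8, 24 or 48 h and 1 of 3 of 96 h passed the background test, whereas 2 of 3 vit C arrays passed at 8 h and both at each later time. The UT arrays were then set to the lowest signal that counted as detected, or to their own value where that was higher. On this footing the vit C mean was 1.39-fold higher at 8 h, 1.26-fold higher at 24 h and 1.67-fold higher at 48 h. The mean of 8 h includes the vit C array that was not detected. By limma the adjusted p-values were 0.595, 0.303 and 0.156, none of which passed, so no least difference is established. These ratios hold on the scale of the processed signal alone, since normexp background correction gave log2 differences of 0.24, -0.16 and 0.19. At 96 h the log2 difference was 0.88 without a call, and it ranged from -0.26 to 1.13 over the alternatives. At 24 h a UT array not well above background (-4.48) lay between the vit C arrays (-4.35 and -4.59). The difference averaged over the 4 times had an adjusted p of 0.0109 (0.90), reached the fold minimum without the first UT array of 24 h (1.00, adjusted p = 0.00217), and was absent after normexp background correction (adjusted p = 0.998).

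**Figure D2:**
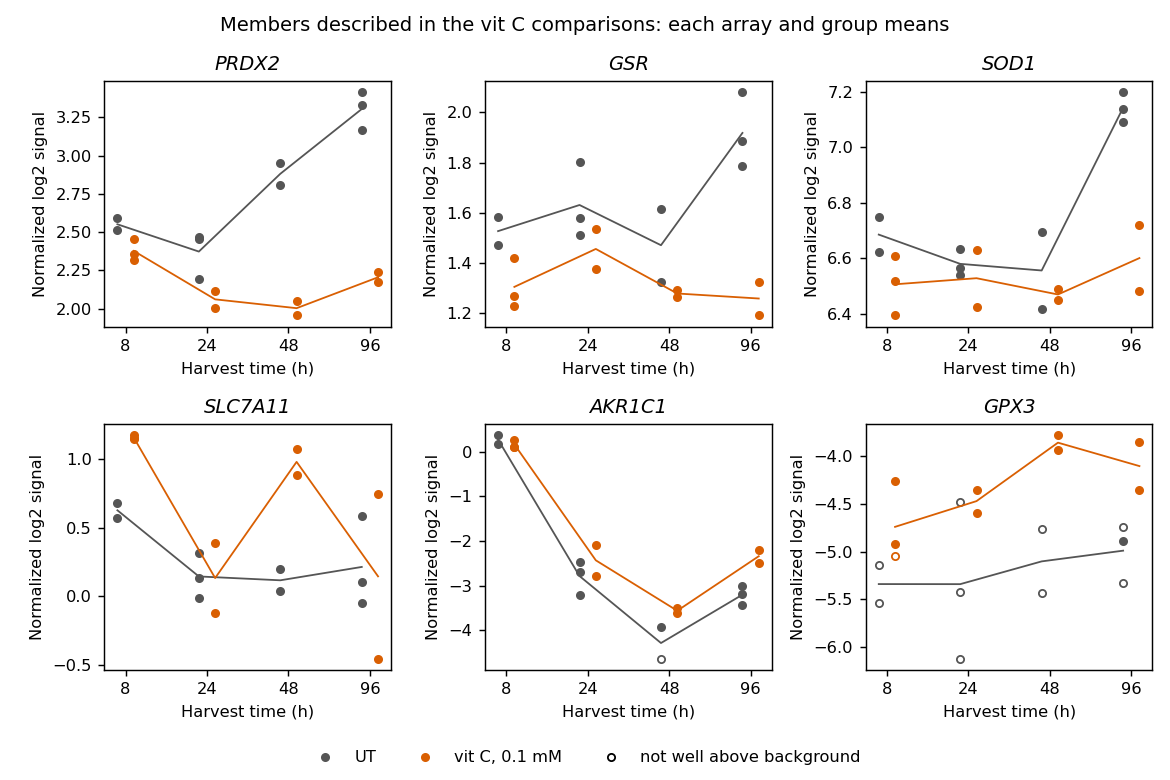
Normalized log2 signal (y axis) of PRDX2, GSR, SOD1, SLC7A11, AKR1C1 and GPX3 at each harvest time (x axis, evenly spaced), 1 point per array in grey for UT and orange for vit C, with lines through the group means and open points for arrays not well above background. PRDX2 rises to 3.17 to 3.42 in UT cells at 96 h while vit C cells stay between 1.95 and 2.45.

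Over the 4 times together 5 of 34 members had an average difference with an adjusted p of at most 0.05 (14.7%, against 13.1% of all gene names). PRDX2, GSR and PRDX1 were lower with vit C, and AKR1C1 and GPX3 were higher. PRDX2 passed in every alternative that could be fitted, from -0.57 to -0.66. The average of AKR1C1 was 0.46 (adjusted p = 0.0443), and it was 0.08 (adjusted p = 0.483) with normexp correction and 0.33 (adjusted p = 0.187) with the mean of its probes, which opposed each other. That of GSR was -0.31 (adjusted p = 0.0276) and -0.17 (adjusted p = 0.371) with the mean of its probes, and that of PRDX1 -0.17 (adjusted p = 0.126) after quantile normalization. AKR1C1, GSR and PRDX1 also missed the threshold in some of the fits without 1 array. No member was called at the fold minimum (2.76% of all). The vit C effects at the 4 times differed from each other for 0 members by the F test (1.22% of all; 3 members at an unadjusted p of at most 0.05, as were 17.7% of all). The effect at 24 h minus the effect at 8 h, in which a constant slide difference cancels, gave 0 called members against 0.0226% of all, and 0 members at an unadjusted p of at most 0.05 (9.32% of all).

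Among the quinone, heme and xenobiotic genes no difference between vit C and UT was called. NQO1 reduces quinones, HMOX1 cleaves heme, EPHX1 hydrolyses epoxides, ABCC1 exports glutathione conjugates, and OSGIN1 is an oxidative stress response gene, which at 8 h had a value of -0.44 (adjusted p = 0.614). The 6 genes of the group other than AKR1B10 had medians of -0.03, -0.31, 0.59 and 0.37 at 8, 24, 48 and 96 h, with 3, 1, 4 and 4 of the 6 above 0. AKR1C1, a reductase of ketosteroids and lipid aldehydes, was -3.18, -3.43 and -3.0 in UT and -2.19 and -2.49 in vit C cells at 96 h, a difference of 0.86 without overlap (95% interval 0.28 to 1.44, adjusted p = 0.0596, and 0.96 with an adjusted p of 0.0340 without the third UT array). It was 0.27 (adjusted p = 0.223) with normexp correction and 0.56 (adjusted p = 0.295) with the mean of the 4 probes. ABCC1 was -1.42, -2.13 and -2.38 in UT and -1.06 and -1.09 in vit C cells, a difference of 0.90 (95% interval 0.29 to 1.51, adjusted p = 0.0605), which was 1.18 (adjusted p = 0.0228, called) without the first UT array, 0.82 (adjusted p = 0.138) without the second and 0.70 (adjusted p = 0.0977) without the third, and 0.53 with normexp correction. NQO1 differed by 0.38 at 96 h (adjusted p = 0.403) and by 0.71 (adjusted p = 0.0117) without the third UT array. HMOX1 and OSGIN1 were the 2 below 0 at both times, HMOX1 at -0.66 at 48 h (95% interval -1.24 to -0.08, adjusted p = 0.235).

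NRF2 itself and its regulators showed no call. NFE2L2 differed by -0.21, 0.20, 0.11 and 0.10 between vit C and UT at 8, 24, 48 and 96 h, with 95% intervals that span 0. At 96 h its UT arrays were at 3.62, 3.51 and 5.19 and its vit C arrays at 4.02 and 4.39, and without the third UT array the difference was 0.64 (adjusted p = 0.114). KEAP1 differed by 0.23, 0.16, -0.18 and -0.43, and BACH1 by -0.35, 0.16, -0.40 and -0.09. At 96 h KEAP1 was 3.07, 3.06 and 1.83 in UT and 2.31 and 2.14 in vit C cells, and without the third UT array its difference was -0.85 with an adjusted p of 0.0150, below the fold minimum. With slide as a fixed block NFE2L2 differed by -0.94, -0.53 and -0.67 and KEAP1 by 0.85, 0.78 and 0.65 at 8, 24 and 48 h (adjusted p of 0.755 to 0.960), so that the direction of NFE2L2 at 24 and 48 h and of KEAP1 at 48 h depended on how slide was treated. That fit takes the difference between slides 1 and 2 from the UT arrays of 96 h alone, the third among them. It was not run without that array, so a shift due to slide and one due to that array cannot be told apart. All these values are levels of mRNA, and the protein, which is what KEAP1 controls, was not measured. The 4 genes of NADPH supply, PGD, TALDO1 and TKT of the pentose phosphate pathway and ME1, malic enzyme, were not called, and the largest of their values at 8 h was -0.36 for TKT (adjusted p = 0.342).

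Over time in culture, larger differences were seen. AKR1C1 and HMOX1 fell steeply in both kinds of cells, OSGIN1 fell in both, SOD2 rose at 24 h, and CAT rose by 96 h in vit C cells. In UT cells 2 members were called at 24 h against 8 h (5.88%, against 2.13% of all gene names), 4 at 48 h (11.8%, against 7.03%) and 4 at 96 h (11.8%, against 12.3%). In vit C cells the counts were 3 at 24 h (8.82%, against 4.26%), 2 at 48 h (5.88%, against 10.6%) and 7 at 96 h (20.6%, against 21.1%). With 1 array left out, 2 to 3 members were called in UT cells at 48 h and in vit C cells at 24 h. The comparisons of each kind share their 8 h arrays. Groups whose arrays did not overlap were common here too. In UT cells they made up 34.8%, 63.2% and 36.9% of all gene names at 24, 48 and 96 h against 8 h. The shares in vit C cells were 34.9%, 51.5% and 67.5%.

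**Figure D3:**
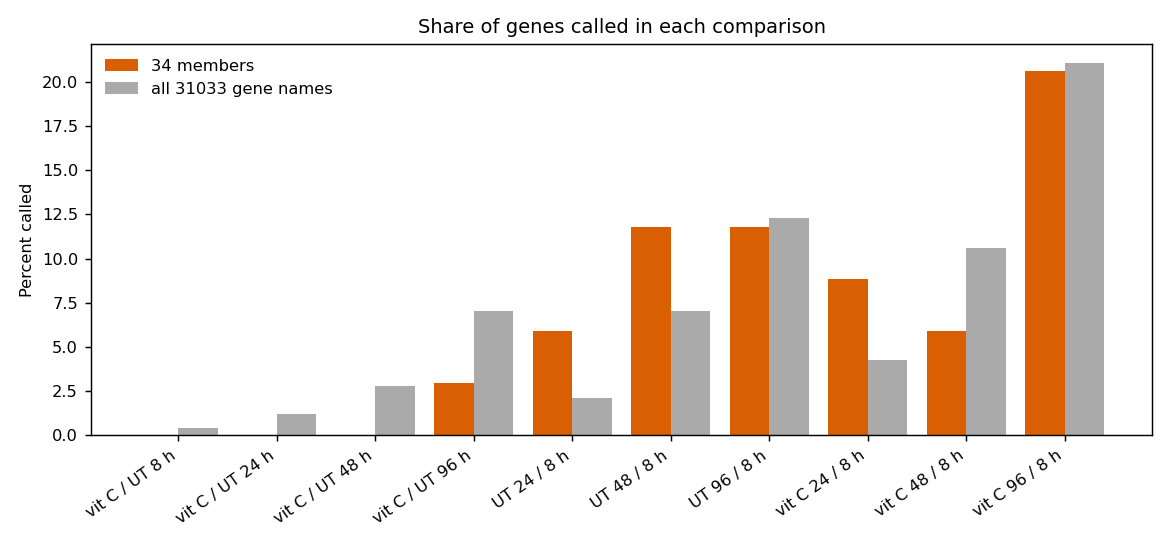
Percent of the 34 members (orange) and of all 31033 gene names (grey) called in each comparison (x axis), by limma with the fold minimum of 1 log2 unit. Members reach 2.94% in the vit C comparison of 96 h and 20.6% in vit C cells at 96 h against 8 h, where all genes reach 7.03% and 21.1%.

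AKR1C1 fell at each later time in both kinds of cells. It was 0.17 and 0.36 in UT cells at 8 h, -2.68, -3.20 and -2.47 at 24 h, -3.94 and -4.63 at 48 h, and -3.18, -3.43 and -3.0 at 96 h. In vit C cells it was 0.10, 0.11 and 0.26 at 8 h, -2.78 and -2.09 at 24 h, -3.51 and -3.61 at 48 h, and -2.19 and -2.49 at 96 h. Every later array lay far below every 8 h array of its kind, with the lowest values at 48 h, where 1 of the 2 UT arrays was not well above background. The fall was 8.30-fold at 24 h, 23.5-fold at 48 h and 11.1-fold at 96 h in UT cells (log2 fold change -3.05, -4.55 and -3.47, adjusted p = 3.9e-05, 4.42e-07 and 6.48e-07). Without the UT array of 48 h that was not well above background, the log2 fold change at 48 h was -4.20 (adjusted p = 1.28e-05). In vit C cells it was 6.03-fold, 13.2-fold and 5.66-fold (log2 fold change -2.59, -3.72 and -2.50, adjusted p = 5.43e-05, 4.51e-07 and 1.07e-05). The next brightest AKR1C1 probe gave -2.95, -5.08 and -3.38 in UT cells, the remaining probes, detected on 14 and 3 arrays, gave -2.19 and -0.17 at 48 h, and with the mean of the 4 probes or normexp background correction the fall at 48 h in UT cells was -3.0 and -2.67. With the methods' t-test the falls at 24 and 48 h in UT cells and at 24 h in vit C cells did not pass (adjusted p = 0.152, 0.120 and 0.106). AKR1C3, named after its values were seen because its probe shares the run shown above, had log2 fold changes of -2.84 and -2.37 in UT and -2.94 and -1.69 in vit C cells at 24 and 96 h. At 48 h it was above background on 0 of 2 arrays of each kind, and it was at least 13.1-fold lower in UT and at least 17.1-fold lower in vit C cells, with all 6 comparisons called. The signals of these near-identical genes cannot be told apart with certainty.

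HMOX1, the stress-inducible heme oxygenase, was far lower at 48 and 96 h than at 8 h in both kinds. It was 7.90 and 7.88 in UT cells at 8 h, 7.98, 7.36 and 7.61 at 24 h, 4.85 and 5.32 at 48 h, and 5.38, 5.81 and 5.27 at 96 h. The vit C arrays gave 8.05, 8.04 and 8.20, then 7.56 and 6.89, then 4.50 and 4.35, then 5.07 and 5.0. The arrays of 48 and 96 h were all below those of 8 and 24 h in both kinds. By limma the drop against 8 h was 6.99-fold at 48 h and 5.29-fold at 96 h in UT cells (adjusted p = 1.42e-05 and 8.25e-06), and 12.7-fold and 8.36-fold in vit C cells (adjusted p = 2.26e-07 and 5.95e-07). At 24 h the difference was -0.24 in UT (adjusted p = 0.680) and -0.87 in vit C cells (adjusted p = 0.0512), the latter without overlap of arrays and called without the first vit C array of 24 h (-1.21, adjusted p = 0.0276). HMOX1 has 1 probe on the array, and its late calls held under each alternative run except the methods' t-test in UT cells, where the adjusted p was 0.124 at 48 h and 0.0726 at 96 h.

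**Figure D4:**
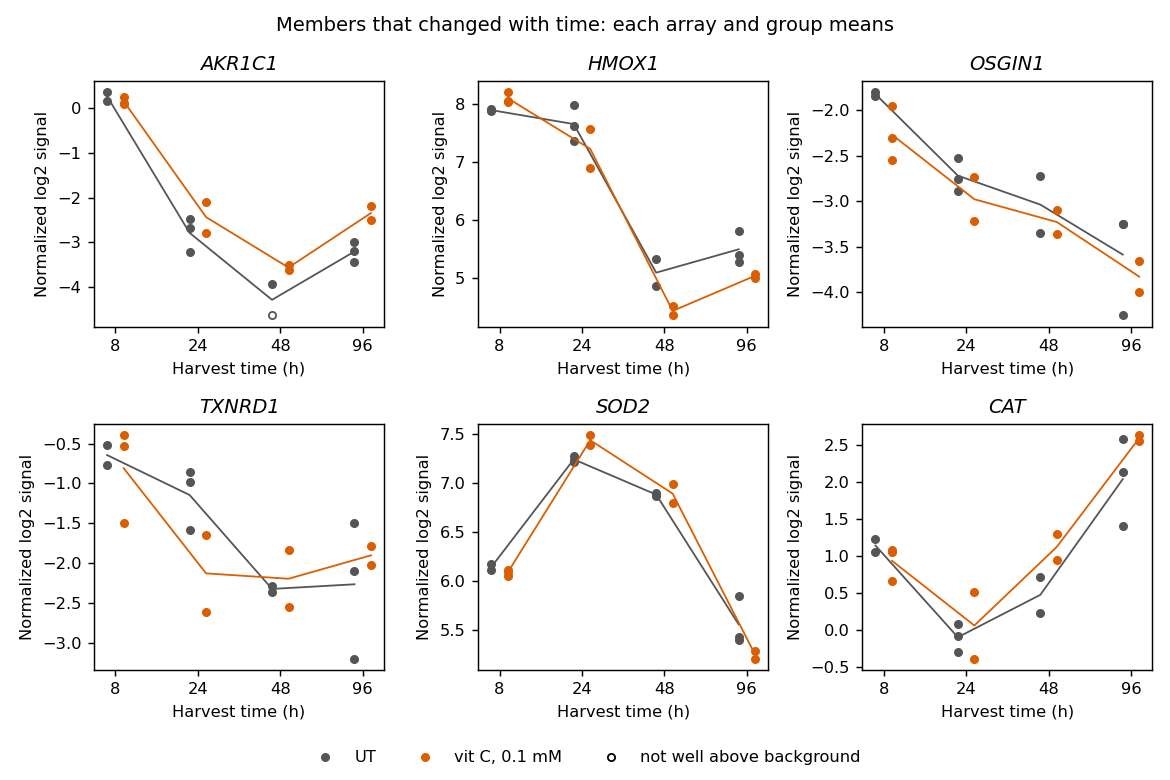
Normalized log2 signal (y axis) of 6 members called over time, at each harvest time (x axis, evenly spaced), 1 point per array in grey for UT and orange for vit C, with lines through the group means. AKR1C1 falls from 0.10 to 0.36 at 8 h to at most -3.51 at 48 h, HMOX1 drops between 24 and 48 h, and SOD2 peaks at 24 h in both kinds.

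OSGIN1 declined more evenly. It was -1.80 and -1.85 in UT cells at 8 h, -2.89, -2.75 and -2.52 at 24 h, -2.72 and -3.35 at 48 h, and -3.25, -3.25 and -4.25 at 96 h, and in vit C cells -2.31, -2.55 and -1.95 at 8 h, -2.74 and -3.22 at 24 h, -3.10 and -3.36 at 48 h, and -3.66 and -4.00 at 96 h. By 96 h it was lower by 3.39-fold in UT (adjusted p = 0.000996) and 2.95-fold in vit C cells (adjusted p = 0.00204) with no overlap of arrays. The UT call was kept without the third UT array of 96 h, the lowest of its group. The UT call at 96 h was lost with slide as a block, with normexp correction and with the methods' t-test, and that at 48 h (log2 fold change -1.21, adjusted p = 0.0380) with normexp correction, the methods' t-test or the replicate block, and without either UT array of 8 h (adjusted p = 0.163 and 0.150) or the second of 48 h (-0.90, adjusted p = 0.297).

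TXNRD1 and NQO1 were called lower over time in UT cells, each in 1 comparison. TXNRD1, with the 3 core sites shown above, was -0.52 and -0.77 at 8 h, -0.99, -0.86 and -1.59 at 24 h, -2.36 and -2.29 at 48 h, and -2.10, -3.20 and -1.50 at 96 h in UT cells. The vit C arrays gave -0.40, -0.54 and -1.49 at 8 h, -2.62 and -1.64 at 24 h, -1.84 and -2.56 at 48 h, and -2.02 and -1.78 at 96 h. Its log2 fold change in UT cells was -1.68 at 48 h (adjusted p = 0.0550) and -1.62 at 96 h (adjusted p = 0.0253), and in vit C cells -1.32, -1.39 and -1.09 at 24, 48 and 96 h without a call. The 48 h difference was called with dim genes left out in UT (adjusted p = 0.0427) and vit C cells (adjusted p = 0.0458). In UT cells it was also called within slide 1 (adjusted p = 0.0167). Without the third vit C array of 8 h, TXNRD1 was called in vit C cells at 48 h (-1.73, adjusted p = 0.0292) and 96 h (-1.44, adjusted p = 0.0423). The UT arrays of 96 h spread widely, and the UT call at 96 h was lost without the first UT array of 8 h (-1.49, adjusted p = 0.155), the second (-1.75, adjusted p = 0.0912) or the second of 96 h (-1.15, adjusted p = 0.0766). It was also lost with slide as a fixed block (-1.46, adjusted p = 0.215), with the replicate block (-1.56, adjusted p = 0.0627) and with the methods' t-test (adjusted p = 0.401). In vit C cells NQO1 was -0.23, -0.29 and -0.45 at 8 h, -1.15 and -1.01 at 24 h, -0.93 and -0.95 at 48 h, and -0.33 and -0.44 at 96 h, without a call. In UT cells it was -0.51 and -0.30 at 8 h, -0.93, -0.61 and -0.77 at 24 h, and -1.51 and -1.58 at 48 h, the last a difference of -1.15 (adjusted p = 0.0181) that was lost without any 1 of the 4 arrays (adjusted p = 0.0629 to 0.136), with normexp correction (-0.80, adjusted p = 0.0420) and with the methods' t-test (adjusted p = 0.132). At 96 h NQO1 was -1.21, -0.99 and -0.10, the last from the array that stood apart, and without that array the difference was -0.70 with an adjusted p of 0.00746.

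SOD2, the manganese superoxide dismutase of mitochondria and a known target of NF-kappa-B, was the 1 member called higher at 24 h. It was 6.11 and 6.17 in UT cells at 8 h and 7.27, 7.21 and 7.23 at 24 h, and 6.09, 6.05 and 6.11 rose to 7.48 and 7.39 in vit C cells. The groups lay well apart, with a rise of 2.14-fold in UT (adjusted p = 0.00179) and 2.55-fold in vit C cells (adjusted p = 0.000155). At 48 h, with 6.89 and 6.86 in UT and 6.99 and 6.79 in vit C cells, it was still higher by 0.74 and 0.80 (adjusted p = 0.0159 and 0.00312), and by 96 h lower by 0.59 and 0.84 on the log2 scale than at 8 h (adjusted p = 0.0206 and 0.00157), at 5.39, 5.43 and 5.84 in UT and 5.28 and 5.20 in vit C cells. The other SOD2 probe gave 0.35 and 1.30 at 24 h, and at 48 h 0.25 in vit C but -0.33 in UT cells, where the mean of both probes was 0.20 (adjusted p = 0.625). At 96 h it gave -2.06 in UT and -0.77 in vit C cells, and with the mean of both probes the UT difference was -1.32 (adjusted p = 0.000271), which was called. The UT call at 24 h was lost with the mean of both probes (0.72, adjusted p = 0.0791), with quantile normalization (0.99, adjusted p = 0.00148) and, as in vit C cells, with the methods' t-test.

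CAT, catalase, took the opposite course, with its lowest level at 24 h. It was 1.22 and 1.06 in UT cells at 8 h, -0.30, -0.09 and 0.08 at 24 h, 0.23 and 0.72 at 48 h, and 2.13, 1.41 and 2.57 at 96 h. With vit C it was 1.08, 1.06 and 0.66, then -0.39 and 0.50, then 1.30 and 0.94, then 2.63 and 2.56. The 96 h arrays were the highest in both kinds. Against 8 h, CAT was 3.16-fold higher in vit C cells at 96 h (adjusted p = 0.00179), a call kept in every alternative that could be fitted, although a fixed slide block could not, since the 8 h and 96 h arrays were on different slides, and in UT cells it was higher by 0.90 at 96 h (adjusted p = 0.0743) and lower by 1.24 at 24 h (adjusted p = 0.0578) without a call. The 24 h difference was called with normexp correction (adjusted p = 0.0262), quantile normalization (adjusted p = 0.0427), the percentile over detected probes (adjusted p = 0.0433) and dim genes left out (adjusted p = 0.0453), and that at 96 h without the second UT array of 96 h (1.21, adjusted p = 0.0121).

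EPHX1, PGD and SLC7A11 were called in vit C cells over time. EPHX1 was -1.77, -1.92 and -1.87 at 8 h, -2.64 and -3.18 at 24 h, -1.99 and -1.93 at 48 h, and -0.80 and -0.44 at 96 h, so that it was 2.08-fold lower at 24 h (adjusted p = 0.0441) and 2.35-fold higher at 96 h (adjusted p = 0.00641), without overlap of arrays in either case. In UT cells it took a like course from -1.71 and -2.08 at 8 h through -3.09, -2.50 and -2.23 at 24 h and -2.32 and -3.02 at 48 h to -0.82, -0.81 and -1.33 at 96 h (log2 fold change 0.91, adjusted p = 0.0422). Without the third UT array of 96 h that difference was called (1.08, adjusted p = 0.0204). The calls discussed next are those in vit C cells. The 24 h call was lost when any 1 of its 5 arrays was left out (adjusted p = 0.0551 to 0.367) and within slide 2 alone (adjusted p = 0.156). It was also lost with normexp correction (-0.55), quantile normalization (-0.98), slide as a fixed block (adjusted p = 0.0688), the replicate block (adjusted p = 0.0937) and the methods' t-test (adjusted p = 0.195). The 96 h call was lost without the second vit C array of 96 h (1.05, adjusted p = 0.0844) and with normexp correction (0.89, adjusted p = 0.00176). PGD was 4.72, 4.45 and 4.91 in vit C cells at 8 h, 4.87 and 4.17 at 24 h, 4.33 and 4.04 at 48 h, and 3.20 and 3.11 at 96 h, 2.91-fold lower (adjusted p = 0.0118, and 0.0526 or 0.0851 without the first or second array of 96 h). In UT cells PGD was 4.59 and 4.33 at 8 h, 4.53, 4.81 and 5.02 at 24 h, 4.62 and 4.43 at 48 h, and 4.33, 4.02 and 2.52 at 96 h, and the lowest of these came from the array that stood apart. Without that array PGD was called lower with vit C than UT at 96 h (adjusted p = 0.0157). SLC7A11 fell 2.02-fold in vit C cells by 96 h (adjusted p = 0.0191), from 1.15, 1.15 and 1.17 to -0.46 and 0.75, which lie far from each other, and the log2 fold change was -0.41 (adjusted p = 0.324) without the first array of 96 h. The other 2 SLC7A11 probes gave 0.04 and -0.65 there, and the call was lost with the mean of the probes (-0.54), normexp correction (-0.88), the replicate block (-0.98) and the methods' t-test (adjusted p = 0.189).

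**Figure D5:**
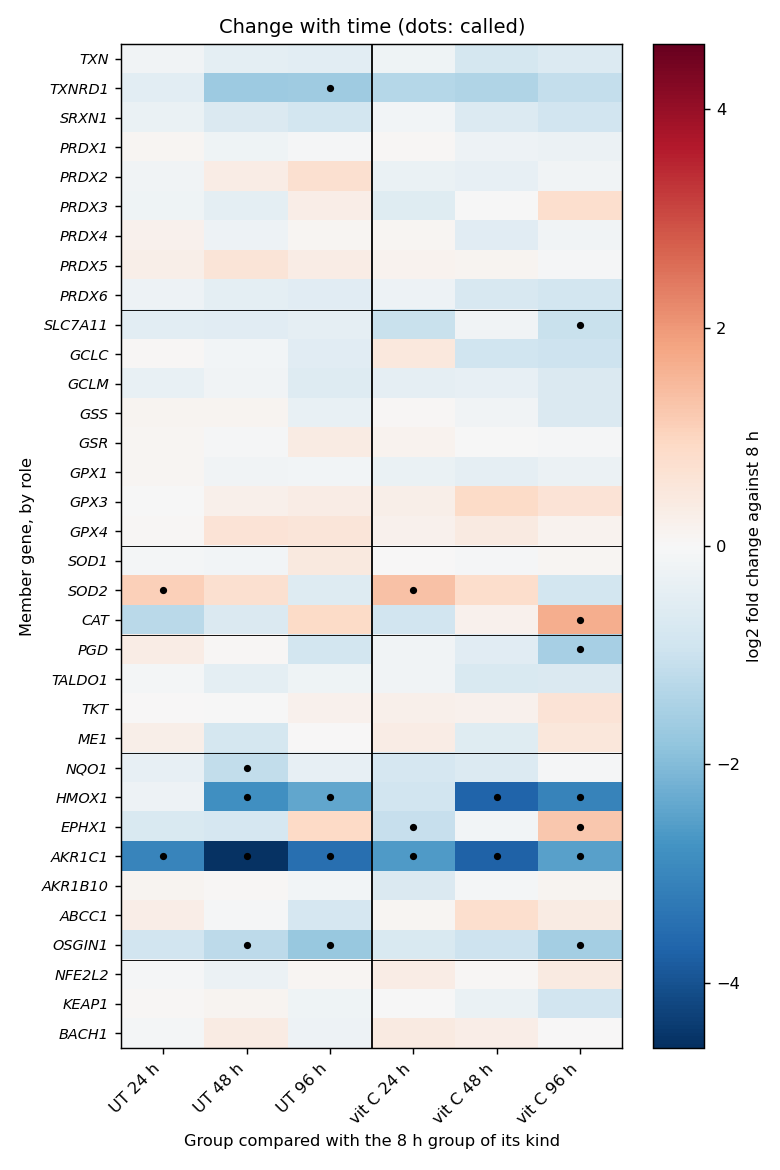
Log2 fold change against the 8 h group of the same kind (colour scale, blue lower and red higher) for each of the 34 members (y axis, by role) in UT and vit C cells at 24, 48 and 96 h (x axis), with dots on called values. AKR1C1 is the member called in each of the 6 columns, and HMOX1 is called at 48 and 96 h in both kinds.

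With the fold minimum dropped, 9 of 34 members (26.5%) passed in UT cells at 96 h against 17.8% of all gene names, and 15 of 34 (44.1%) in vit C cells against 30.8% of all. The added members moved by less than 1 log2 unit. Those lower in vit C cells at 96 h included SRXN1 at -0.88, PRDX6 at -0.84, GCLC at -0.97, GCLM at -0.67, TXN at -0.62 and TALDO1 at -0.66, and TKT was higher at 0.64. SRXN1 and PRDX6 were lower in UT cells as well, at -0.83 and -0.52 (adjusted p = 0.00791 and 0.0463), and PRDX2 was higher at 0.75 (adjusted p = 0.00292). At 48 h the count in vit C cells was 8 of 34 (23.5%, against 15.7% of all). Among the members that passed in none of these counts, NFE2L2, KEAP1, BACH1, GPX1, GPX4 and PRDX4 had time differences between -0.86 and 0.62.

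Other gene lists were read beside the members. Of 32 further NRF2 targets on the array, 0 were called at 8 and 24 h with vit C, 1 at 48 h and 2 at 96 h, all lower: the epithelial-type glutathione peroxidase GPX2 at -1.17, the carbonyl reductase CBR3 at -1.16, and ALDH3A1, which was above background on 0 arrays of that comparison and has no usable fold. Over time, 7 of the 32 were called lower and 0 higher in UT cells at 48 h, and 9 lower and 0 higher in vit C cells, beside 2.6% and 4.03% of all gene names called lower. At 96 h the counts were 5 lower and 2 higher in UT and 7 lower and 2 higher in vit C cells, beside 12.3% and 21.1% of all called in either direction, and the 7 include ALDH3A1, again above background on 0 arrays. Of 24 other antioxidant enzymes and of 10 enzymes of ascorbate recycling, 0 were called with vit C at any time. Of 13 other regulators of NRF2, BACH2 was called lower at 96 h at -1.05 (adjusted p = 0.0235). Of 13 NADPH oxidase subunits, 0 were called with vit C at a single time, and DUOX2, above background on 1 array of all, was called lower in the average over times. Of the 17 genes in a list of ATF4 and its targets in the amino acid response, 6 were called higher with vit C at 48 h, beside 1.59% of all gene names, and the list median was 0.84. The 5 largest were PSAT1 and PHGDH of serine synthesis at 2.60 and 1.98, asparagine synthetase ASNS at 1.99, and the stress genes TRIB3 at 1.73 and DDIT4 at 1.63. At 96 h 1 of the 17 was called, ATF3, which was lower by limma at -1.77 (adjusted p = 0.000135), and the list median was -0.28. The list also rose over time without vit C. Against 8 h, 3 of the 17 were called higher in UT cells at 48 h, and 9 higher and 1 lower in vit C cells. At 96 h 7 were higher and 1 lower in each kind, beside 12.3% and 21.1% of all called. With slide as a fixed block, 54 names in all were called higher with vit C at 48 h, against 492 without it, and the list was not read in that fit.

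Marker lists moved with time beside these genes. The summed level of 5 promonocyte markers was 49.2 to 49.8 in UT and 38.6 to 41.9 in vit C cells at 8 h and 2.89 to 6.36 and 1.99 to 2.08 at 48 h, in multiples of the 75th percentile signal. That of 4 proliferation markers went from 4.38 to 4.52 in UT and 4.04 to 4.16 in vit C cells at 8 h to 27.8 to 47.2 and 33.3 to 34.9 at 96 h. The summed level of 8 macrophage markers was between 290 and 444 over all arrays. CSF1R (mean log2 level 8.27) outweighs the others in this sum, with CD14 next at 3.47. Single markers moved, and at 96 h against 8 h 2 of the 8 were called higher and 3 lower in UT cells. In vit C cells 2 were higher and 2 lower, beside 12.3% and 21.1% of all gene names called. With vit C against UT, 2 were called lower at 48 h and 1 at 96 h, beside 2.8% and 7.03% of all. The summed level of 4 fibroblast genes was 0.699 to 1.3 in UT and 4.32 to 4.91 in vit C cells at 96 h, where DCN was higher with vit C by 2.48 on the log2 scale and COL1A2 was not above background. The part of these shifts in the changes of the antioxidant genes was not tested.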

How the data were processed

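The authors scanned 19 one-colour Agilent arrays with Feature Extraction (version 10.5.1.1 per the file headers) and deposited the processed signal intensity of each spot. The authors' own value table, on the log2 scale, equals log2 of this intensity minus a constant per array to within 2.02e-06 for the 50108 probes with 1 spot, and served as an alternative. Here log2 intensities of replicate spots were averaged (50238 probes), each array's 75th percentile was subtracted, and the brightest probe by its mean over all arrays stood for each of 31033 gene names. The 8 group means were fitted in 1 limma model (limma 3.58.1, R 4.3.3), after the fit had been tested on simulated data, with 2-sided tests and Benjamini-Hochberg adjustment. The methods used a t-test, which with 2 or 3 arrays a group is an alternative here. Members called in any comparison are named with every array's value, and for a vit C comparison with fewer than 3 called members the 3 largest differences among members detected on every array of both groups are given too. Promoter windows were read from a RefSeq table. The members and lists were chosen with earlier results of these data known. Alternatives were normexp correction (offset 50), quantile or other scaling, mean of probes, removal of dim genes or of genes with opposing probes, slide as a block, the replicate number as a block, the t-test, no fold minimum, and each array left out.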

Additional observations from a re-analysis of the deposited data

How the results depend on the processing

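Of the counts of called members, 150 stayed within 1.5 times the main count under the alternatives run and 16 moved by more, apart from the fits without 1 array, and no fold change of a called member reversed under any alternative. With the mean of a gene's probes, 1 member was called with vit C at 48 h, 0 at 96 h, and 1 in UT cells at 24 h against 8 h. With the methods' t-test, 0 were called with vit C at 96 h, 0 in UT cells at 24 h and 0 at 48 h, 1 in UT cells at 96 h, and 0 in vit C cells at 24 h. Without a fold minimum, the counts were 1 and 3 with vit C at 48 and 96 h, 5 in the average over times, 9 in UT cells at 96 h, and 8 and 15 in vit C cells at 48 and 96 h. With normexp correction 2 were called in UT cells at 48 h, and with slide as a fixed block 2 in UT cells at 96 h. Slide as a fixed block could not be estimated for the vit C comparison at 96 h, the average, the differences among effects or vit C cells at 96 h against 8 h. Without 1 array each, the counts were 0 to 0 with vit C at 8, 24 and 48 h, 1 to 2 at 96 h, 0 to 1 in the average, 0 to 2 for differences among effects and 0 to 0 for the 24 h minus 8 h effect. They were 2 to 2, 2 to 3 and 3 to 6 in UT cells and 2 to 3, 2 to 3 and 5 to 9 in vit C cells at 24, 48 and 96 h.

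Arrays with the same replicate number did not deviate together, with correlations of -0.111 to 0.090, so the numbers were not read as pairs. With the replicate number as a block, 3 members were called in UT cells at 48 h, 3 at 96 h and 2 in vit C cells at 24 h, and the other counts equalled those without it, although in vit C cells at 96 h SLC7A11 lost its call and GCLC gained one. At 48 h the titles, used here, number the arrays of both kinds 1 and 2 where the descriptions have 2 and 3, which leaves the pairs at 48 h as they are. With the numbers of the descriptions as the block, chosen after seeing the data, the counts were as with the titles except 6 in vit C cells at 96 h.

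Over all genes, 2182 names were called with vit C at 96 h, against 839 after quantile normalization and 749 after normexp correction, with 1649 of 2182 lower in the main setting and 416 of 839 and 504 of 749 in these. The median of all genes at 96 h moved from -0.15 to -0.40 under normexp correction. Signal over background limits AKR1C1 at 48 h, GPX3 and AKR1B10, and with 2 or 3 arrays a group a difference that missed the threshold is not shown to be absent.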
